A study of Mus musculus with 9 samples.

Results

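The genes described here are 56 genes of mitosis and chromosome segregation, chosen by name for what their proteins do, with earlier results of these data known. A gene was measured through the probe sets annotated to its symbol alone, and where a gene had several, the one with the highest average signal stood for it. In this way 53 of the 56 genes were measured, among 22180 genes in all. *Ccnb1*, *Ccnf* and *Ncapg* had no probe set annotated to them alone and are not analysed here. The arrays measured RNA of whole kidney tissue, labelled kidney and described as renal cortex in the study's methods, from male mice in 3 groups of 3 animals, 1 array each. The *db/m* mice, lean carriers of a single mutant copy of the leptin receptor gene, received vehicle for 12 weeks. The untreated *db/db* mice, which lack the functional leptin receptor in every tissue and become obese and diabetic, received the same vehicle for 12 weeks, and the irbesartan-treated *db/db* mice received irbesartan, a blocker of the angiotensin II type 1 receptor, by mouth for 12 weeks. The series design puts the *db/db* mice at 10 weeks of age when dosing began, whereas the study's methods give a younger age for the mice as bought. The labels give no age for the *db/m* mice. No *db/m* mouse received the drug, so its effect was measured in diabetic animals alone.

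Cells enter mitosis when cyclin-dependent kinase 1, joined to an A- or B-type cyclin, becomes active. Chromosomes are then condensed, attached to spindle microtubules at their kinetochores, held back by a checkpoint until all are attached, pulled apart, and parted into daughter cells by a contractile ring. Transcripts of these genes build up in the G2 and M phases and are scarce in resting cells, so in the adult kidney, where most tubule cells rest, they come from a small share of the cells. In whole tissue, fewer dividing cells and less of each transcript per cell cannot be told apart.

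All values are log2 signals after robust multi-array averaging (RMA), a method that corrects background, brings the arrays to a common distribution and summarises the probes of a probe set. A difference of 1 on this scale is a doubling. Each difference is written as the first-named group minus the other, so that a negative value for irbesartan means a lower signal in treated mice. The signs in the list of top genes that the study printed run the other way. A gene was called changed when its log2 fold change passed 0.5 in size and its Benjamini-Hochberg adjusted p over all 22180 genes in limma was under 0.25. These are the limits of the study's methods, where the sign on fold is printed as less than and is taken here as greater than. That limit on adjusted p is lenient, since it accepts an expected share of up to 25% false ones among all genes under it. That share does not carry over to the 53 genes alone, or to those that also pass the limit on fold. The counts at 0.05 are given beside it. Signals of different probe sets are not compared as amounts of RNA. Of the 53 genes, 16 had a signal at or above the median gene (4.36) and 37 lay below it, where a true change tends to be compressed.

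In untreated *db/db* kidneys, 12 of the 53 mitosis genes were called higher than in *db/m* mice and 0 were called lower, against 1.31% of all genes called higher and 0.987% called lower. In irbesartan-treated *db/db* kidneys, 9 of the 53 were called lower than in untreated *db/db* kidneys and 0 were called higher, against 0.428% of all genes called lower and 0.577% called higher. *Ccnb2*, *Mki67*, *Plk1*, *Top2a*, *Ccna2*, *Prc1* and *Smc2* were called in both comparisons, higher with the *db/db* genotype and lower again with irbesartan. Both comparisons use the same 3 untreated *db/db* arrays, with opposite sign, so they are not separate measurements of the same pattern. Over the 53 genes, the median log2 fold change was 0.23 for *db/db* against *db/m* (all genes 0.01) and -0.21 for irbesartan against untreated *db/db* (all genes -0.01). The sign was positive for 42 of 53 genes in the first comparison and negative for 48 of 53 in the second.

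**Figure D1:**
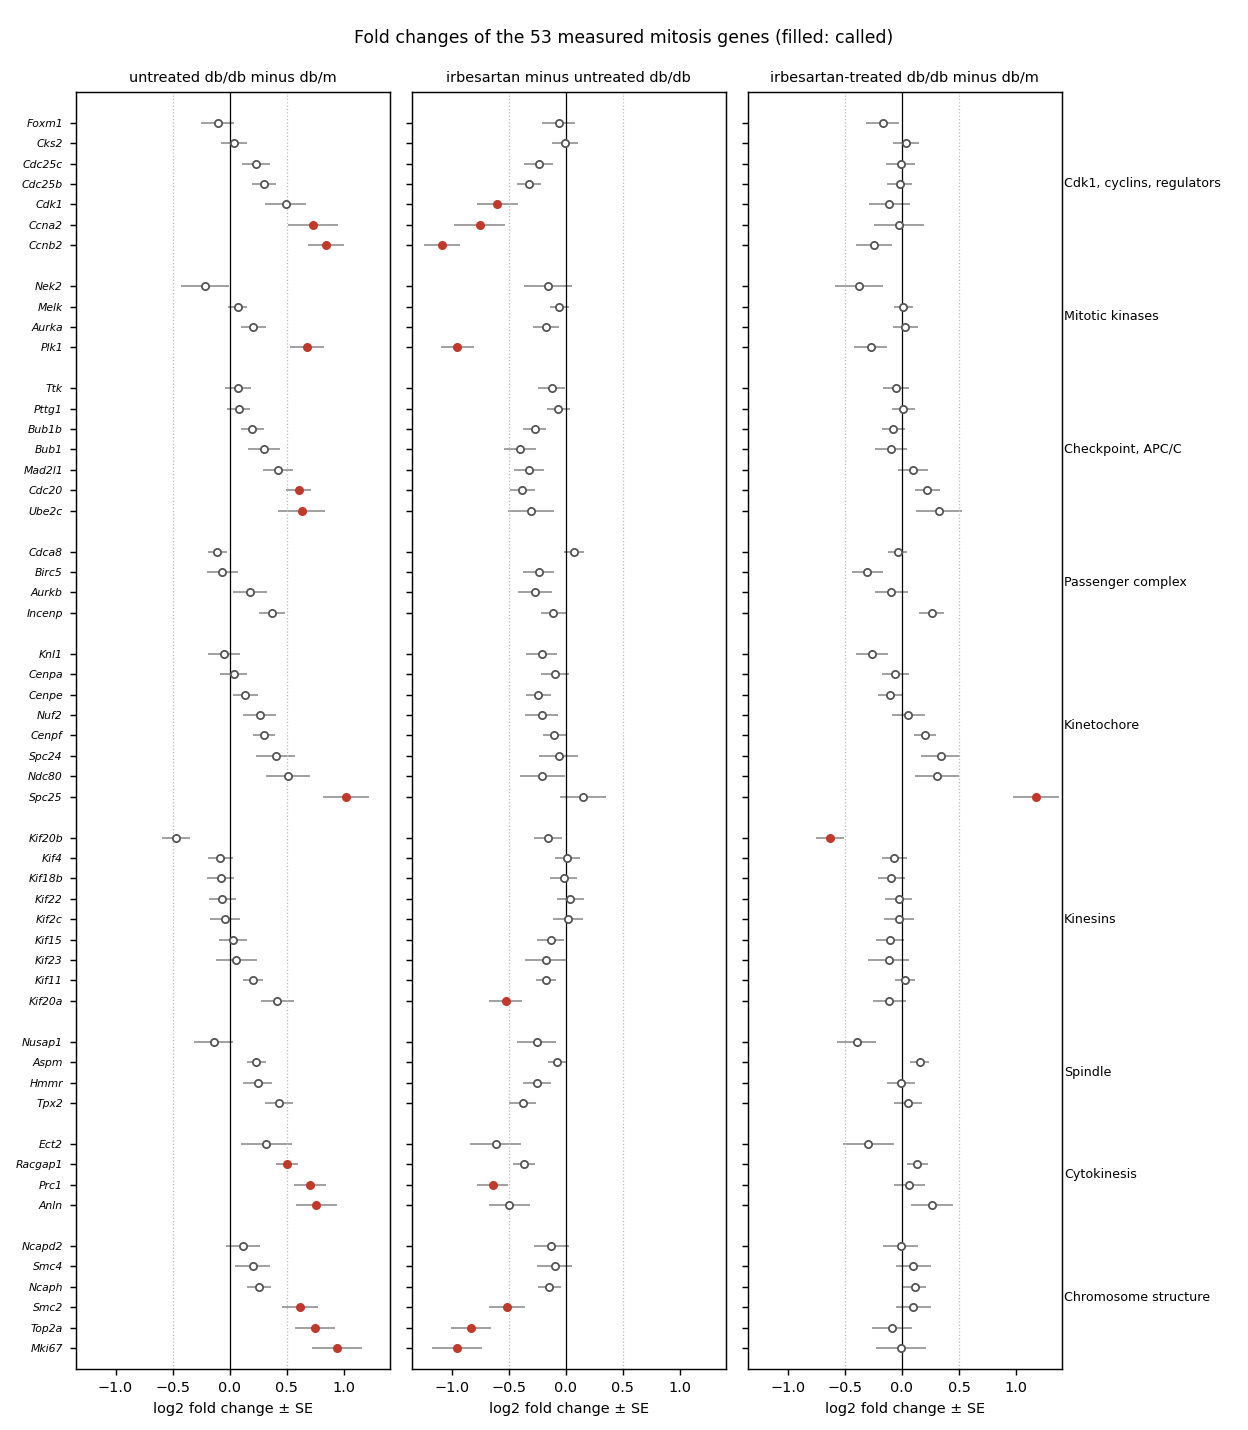
Log2 fold changes (x axis) of the 53 mitosis genes by role, in 3 panels for untreated db/db minus db/m, irbesartan-treated minus untreated db/db, and irbesartan-treated db/db minus db/m, with bars for the standard error, filled points for called genes and dotted lines at the limit on fold of 0.5. 12 genes were called to the right of 0 in the first panel and 9 to the left in the second, in the last only Spc25 and Kif20b were called, and each 2 panels share a group of arrays.

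At adjusted p under 0.05 in limma, 5 of the 12 genes higher in *db/db* kidneys remained called (*Cdc20*, *Racgap1*, *Ccnb2*, *Prc1* and *Spc25*), against 0.5% of all genes. None of the 9 lower with irbesartan did, and neither did any other gene of the 22180. Without adjustment, 19 of the 53 mitosis genes had p under 0.05 in limma for irbesartan against untreated *db/db*, as did 2712 of all 22180 genes. For *db/db* against *db/m* these were 25 of the 53 and 2890 of all genes. The 3 treated arrays all lay below the 3 untreated *db/db* arrays in 15 of the 53 genes, against 13.1% of all genes. The 3 untreated *db/db* arrays all lay above the 3 *db/m* arrays in 22 of the 53, against 9.18% of all genes.

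The group of untreated *db/db* mice was not uniform. Averaged over the 53 genes, the log2 signal was 3.98, 3.79 and 4.10 in *db/db* replicates 1, 2 and 3, between 3.65 and 3.71 in the *db/m* mice, and between 3.64 and 3.72 in the treated mice. *db/db* replicate 3 had the highest signal of all 9 arrays in 28 of the 53 genes, and *db/db* replicate 2 was the lowest of its group in 40 of the 53. The median standard deviation of the 53 genes was 0.18 in untreated *db/db* mice, 0.14 in *db/m* mice and 0.14 in treated mice, and over all genes it was 0.12, 0.15 and 0.10. *db/db* replicate 3 also stood apart in neutrophil markers. The summed linear signal of 12 such markers was 658 there, and between 99.8 and 117 on the other 8 arrays. *Retnlg*, a peptide of neutrophils, measured 8.26 on that array and from 3.01 to 3.83 elsewhere, and *S100a8*, a calcium-binding protein of neutrophils and monocytes, measured 6.08 against 1.78 to 2.28. All 12 markers were higher in the mean of *db/db* than of *db/m* mice and none was called. The part of these cells in the mitosis signal of replicate 3 was not tested. Without that array, 5 of the 9 genes remained called lower with irbesartan (*Ccnb2*, *Plk1*, *Prc1*, *Mki67* and *Top2a*; 0.762% of all genes were then called lower), and 8 of the 12 remained called higher in *db/db* mice (*Ccnb2*, *Plk1*, *Prc1*, *Mki67*, *Top2a*, *Cdc20*, *Spc25* and *Anln*; 1.11% of all genes were then called higher). *Kif20b* was then called lower in *db/db* against *db/m* mice.

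**Figure D2:**
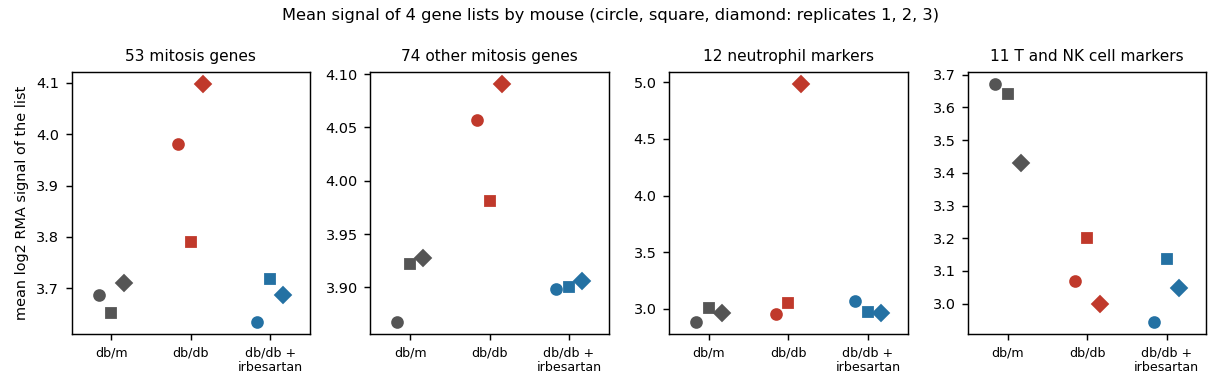
Mean log2 RMA signal per mouse (y axis, with its own range in each panel) of the 53 mitosis genes, 74 further mitosis genes, 12 neutrophil markers and 11 T and NK cell markers in the 3 groups. In the mitosis panel the 3 untreated db/db mice, at 3.98, 3.79 and 4.10, lie above the other 6, and in the neutrophil panel db/db replicate 3 alone stands away from the rest.

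The tissue label was checked against its markers. 10 markers of the proximal tubule, among them *Slc34a1* and *Lrp2*, averaged between 11.2 and 11.3 on the log2 scale on every array, and no 2 of the 9 arrays correlated below 0.984 over all probe sets. Markers of T and NK cells moved with the diabetic genotype. In untreated *db/db* mice against *db/m*, 5 of 11 (*Cd3e*, *Cd3g*, *Cd8a*, *Cd8b1* and *Nkg7*) were called lower and 0 higher. Of all genes, 0.987% were called lower and 1.31% higher. The summed signal of the 11 was 152 to 202 in *db/m*, 107 to 126 in untreated *db/db* and 103 to 125 in treated mice. Of a list of 10 genes of red cell precursors only 5 were measured. Their summed signal was 238 to 355 in untreated *db/db*, 204 to 233 in *db/m* and 215 to 265 in treated mice. In untreated *db/db* against *db/m* mice, 4 of the 5 had a higher mean and 1 a lower. The transferrin receptor gene *Tfrc* alone was called higher there (0.60, limma adjusted p = 0.184), 20% of the list against 1.31% of all genes. The sum weighs bright probe sets most, and *Slc4a1*, an anion exchanger of red cells that intercalated cells of the kidney also make, is on this list, with 6.64 to 6.91 in *db/m*, 6.85 to 7.60 in untreated *db/db* and 6.86 to 7.11 in treated mice. The part of any of these shifts in the mitosis values was not tested.

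The start sites of these genes are shown first, because many of their promoters share letters that the choice of genes did not use. The CHR element (cell cycle genes homology region) is known to be bound by the MuvB complex, which with other partners keeps late cell cycle genes off in resting cells and turns them on in G2. The CCAAT box is bound by NF-Y, which often works beside it. Windows from 250 bases before to 50 bases after the annotated start were taken from RefSeq, build GRCm38.p6, for 47 of the 56 genes (49 windows, since *Prc1* and *Ect2* have more than 1). The windows of *Prc1* overlap, as do those of *Ect2*, so the counts over windows below count matches in the shared bases more than once. Below are the windows of *Ccnb2* and *Plk1*, the genes with the lowest p for irbesartan, of *Prc1*, a gene called in both comparisons, and of *Spc25*, which was higher in *db/db* kidneys with or without the drug. Each is read 5′ to 3′ along the gene, and capitals mark every match to the CHR element (TTTGAA or TTCGAA) or the CCAAT box (CCAAT) on either strand. The positions are chr9:70421505-70421804 (minus strand) for *Ccnb2*, chr7:122159185-122159484 (plus strand) for *Plk1*, chr7:80294201-80294500 (plus strand) for *Prc1*, and chr2:69206164-69206463 (minus strand) for *Spc25*.
Ccnb2: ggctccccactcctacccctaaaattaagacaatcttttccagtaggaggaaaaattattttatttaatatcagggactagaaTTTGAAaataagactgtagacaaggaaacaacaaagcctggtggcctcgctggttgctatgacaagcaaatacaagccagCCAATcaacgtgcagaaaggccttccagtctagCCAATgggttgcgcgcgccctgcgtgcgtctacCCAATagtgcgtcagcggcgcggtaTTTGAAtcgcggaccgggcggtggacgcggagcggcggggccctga
Plk1: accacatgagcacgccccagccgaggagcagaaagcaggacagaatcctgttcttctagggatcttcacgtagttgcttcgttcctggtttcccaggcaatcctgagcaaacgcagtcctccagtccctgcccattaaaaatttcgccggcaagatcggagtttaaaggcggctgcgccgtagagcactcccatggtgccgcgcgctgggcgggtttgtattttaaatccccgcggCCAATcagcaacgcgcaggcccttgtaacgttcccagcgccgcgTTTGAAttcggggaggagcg
Prc1: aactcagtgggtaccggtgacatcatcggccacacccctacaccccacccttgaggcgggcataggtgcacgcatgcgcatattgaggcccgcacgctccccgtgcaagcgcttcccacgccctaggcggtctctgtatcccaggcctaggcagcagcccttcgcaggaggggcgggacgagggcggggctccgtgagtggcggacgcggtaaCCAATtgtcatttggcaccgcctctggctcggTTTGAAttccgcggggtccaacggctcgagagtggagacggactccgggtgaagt
Spc25: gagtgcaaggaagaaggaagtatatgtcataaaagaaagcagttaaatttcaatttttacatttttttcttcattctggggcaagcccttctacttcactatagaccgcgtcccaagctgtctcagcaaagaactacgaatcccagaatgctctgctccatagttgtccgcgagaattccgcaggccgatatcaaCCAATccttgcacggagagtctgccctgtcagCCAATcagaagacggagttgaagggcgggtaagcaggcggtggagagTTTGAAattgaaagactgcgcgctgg

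*Ccnb2* had 3 CCAAT boxes in the same orientation, whose first bases lay 87, 54 and 21 bases before the start, and a CHR match 4 bases after it, with another CHR match 167 bases before. *Plk1* had 1 CCAAT box, 14 bases before the start, and 1 CHR match 30 bases after it. In *Prc1* the CCAAT box lay 37 bases before the start and the CHR match 5 bases before. *Spc25* had 2 CCAAT boxes, at 55 and 23 bases before the start, and a CHR match 24 bases after it. The window of *Spc25*, whose signal was not lower with irbesartan, thus held both motifs as the windows of *Ccnb2*, *Plk1* and *Prc1* did.

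Over the 49 windows, 38 (77.6%) held a CHR match, against 19.2% of 32851 windows of all genes in the same table. A CCAAT box was present in 36 (73.5%), against 37.4% of all windows, and 25 (51.0%) held at least 2 of them, against 11.7%. Both motifs were present in 32 (65.3%), against 7.52%. The E2F site, searched as TTTCCCGC, TTTGGCGC, TTTCGCGC or TTTGCCGC on either strand, was present in 4 (8.16%), against 2.26%. The 7 windows of the 6 genes called in both comparisons that had one (*Ccnb2*, *Mki67*, *Plk1*, *Top2a*, *Prc1* and *Smc2*) all held both a CHR match and a CCAAT box, and none held an E2F site. In all, 30 of the 47 genes with a window held both motifs, so the pair was not confined to the called genes. Neither motif was found in the windows of 7 genes (*Birc5*, *Mad2l1*, *Melk*, *Ncaph*, *Nuf2*, *Nusap1* and *Pttg1*). A match is a run of letters and not a measured site of binding. Matches to different motifs can share an end base, and the letters are short enough to occur in many unrelated windows, as their share in all windows shows.

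The matches were also placed alike. Of 53 CHR matches in the 49 windows, 37 (69.8%) began within 50 bases of the start, against 25.2% of 7260 matches in all windows. Of 83 CCAAT boxes, 52 (62.7%) began in the 100 bases before the start, against 43.6% of 17707. These distances were chosen after the positions had been seen.

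**Figure D3:**
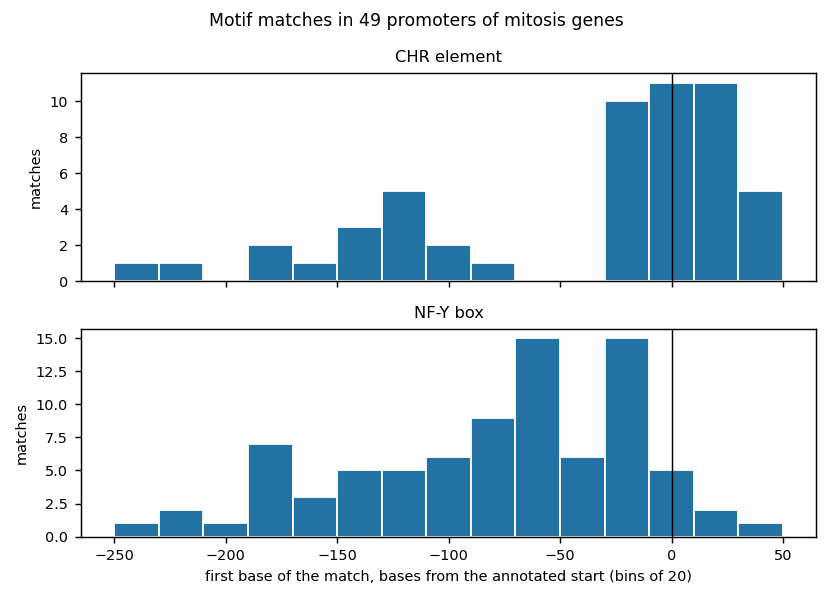
Number of matches (y axis) by distance of the first base from the annotated start (x axis, bases, bins of 20) in 49 promoter windows of mitosis genes, for the CHR element and for the NF-Y (CCAAT) box. 37 of 53 CHR matches fall within 50 bases of the start, and 52 of 83 boxes fall in the 100 bases before it.

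Among the cyclins, CDK1 and their direct regulators, 3 of 7 measured genes were called lower with irbesartan, against 0.428% of all genes. In *db/db* mice 2 were called higher, against 1.31% of all genes, and 0 were called in the other directions. *Ccnb2* encodes cyclin B2, a partner of CDK1 at entry into mitosis. Its signal was 4.82, 4.80 and 4.94 in *db/m*, 5.54, 5.43 and 6.11 in untreated *db/db*, and 4.63, 4.74 and 4.47 in treated mice. All 3 untreated *db/db* arrays lay above all others, and all 3 treated arrays lay below the *db/m* arrays as well. The log2 fold change with irbesartan was -1.08 (SE 0.16, limma adjusted p = 0.0705), a 2.12-fold lower signal, and it was 0.84 (SE 0.16, limma adjusted p = 0.0363), or 1.79-fold, for *db/db* against *db/m*. Without *db/db* replicate 3, which held the highest value, these were -0.88 and 0.63, and both calls stayed whichever of the 9 arrays was left out.

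*Ccna2* encodes cyclin A2, which pairs with CDK2 in S phase and with CDK1 before mitosis. Its signal was 3.97, 4.39 and 4.49 in *db/m*, 5.18, 4.48 and 5.39 in untreated *db/db*, and 4.31, 4.01 and 4.46 in treated mice. *db/db* replicate 2 lay within the range of the *db/m* group and only just above the highest treated mouse. The log2 fold change was -0.75 with irbesartan (SE 0.22, limma adjusted p = 0.236) and 0.73 for *db/db* against *db/m* (SE 0.22, limma adjusted p = 0.176). The first call was lost without *db/db* replicate 1 or 3, *db/m* replicate 2, or any 1 of the treated arrays, with values from -1.02 to -0.57, and the second without *db/db* replicate 1 or 3 or *db/m* replicate 1, with a lowest value of 0.54.

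*Cdk1*, the kinase that drives entry into mitosis, measured 4.53, 4.30 and 4.74 in *db/m*, 5.17, 4.61 and 5.25 in untreated *db/db*, and 4.16, 4.57 and 4.50 in treated mice. Treated and untreated *db/db* mice were apart by a narrow margin, 4.57 against 4.61, while *db/m* and *db/db* overlapped. The fall of 0.60 with irbesartan (SE 0.18, limma adjusted p = 0.245) just passed, and it was lost in 8 of the 9 fits that left out 1 array (all but *db/m* replicate 3). The log2 fold change of 0.49 for *db/db* against *db/m* was not called (limma adjusted p = 0.275). *Cdc25b*, a phosphatase that removes the inhibitory phosphates from CDK1, had log2 fold changes of -0.32 with irbesartan and 0.30 for *db/db* against *db/m*, and neither was called. *Cks2*, a small CDK-binding protein, gave among the smallest differences of the 53 genes, with group means of 9.06, 9.10 and 9.10 in *db/m*, untreated and treated *db/db* mice. It is read by 4 probe sets, 3 of which carry identical values. *Foxm1*, a transcription factor that activates many G2 and M genes, measured 3.33 ± 0.21 in *db/m*, 3.22 ± 0.26 in untreated *db/db* and 3.16 ± 0.09 in treated mice (SD, n = 3 each), with the 3 ranges overlapping.

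The mitotic kinases gave 1 called gene of 4 in each comparison, and in both it was *Plk1*. Over all genes, 0.428% were called lower with irbesartan and 1.31% higher in *db/db* mice. Polo-like kinase 1 matures centrosomes and helps activate CDK1. *Plk1* measured 4.15, 3.78 and 4.31 in *db/m*, 4.83, 4.52 and 4.91 in untreated *db/db*, and 3.72, 3.79 and 3.91 in treated mice, so that every untreated *db/db* array lay above all others. It was lower with irbesartan by 1.93-fold (log2 fold change -0.95, SE 0.15, limma adjusted p = 0.0722) and 1.60-fold higher with the *db/db* genotype (0.68, SE 0.15, limma adjusted p = 0.0594). Leaving out any 1 array kept both calls, with values from -1.07 to -0.87 and from 0.53 to 0.79. *Aurka*, the Aurora kinase of the spindle poles, averaged 4.07, 4.27 and 4.10 in *db/m*, untreated and treated *db/db* mice and was not called. *Nek2*, a centrosome kinase, and *Melk*, a kinase of dividing cells, were not called either.

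**Figure D4:**
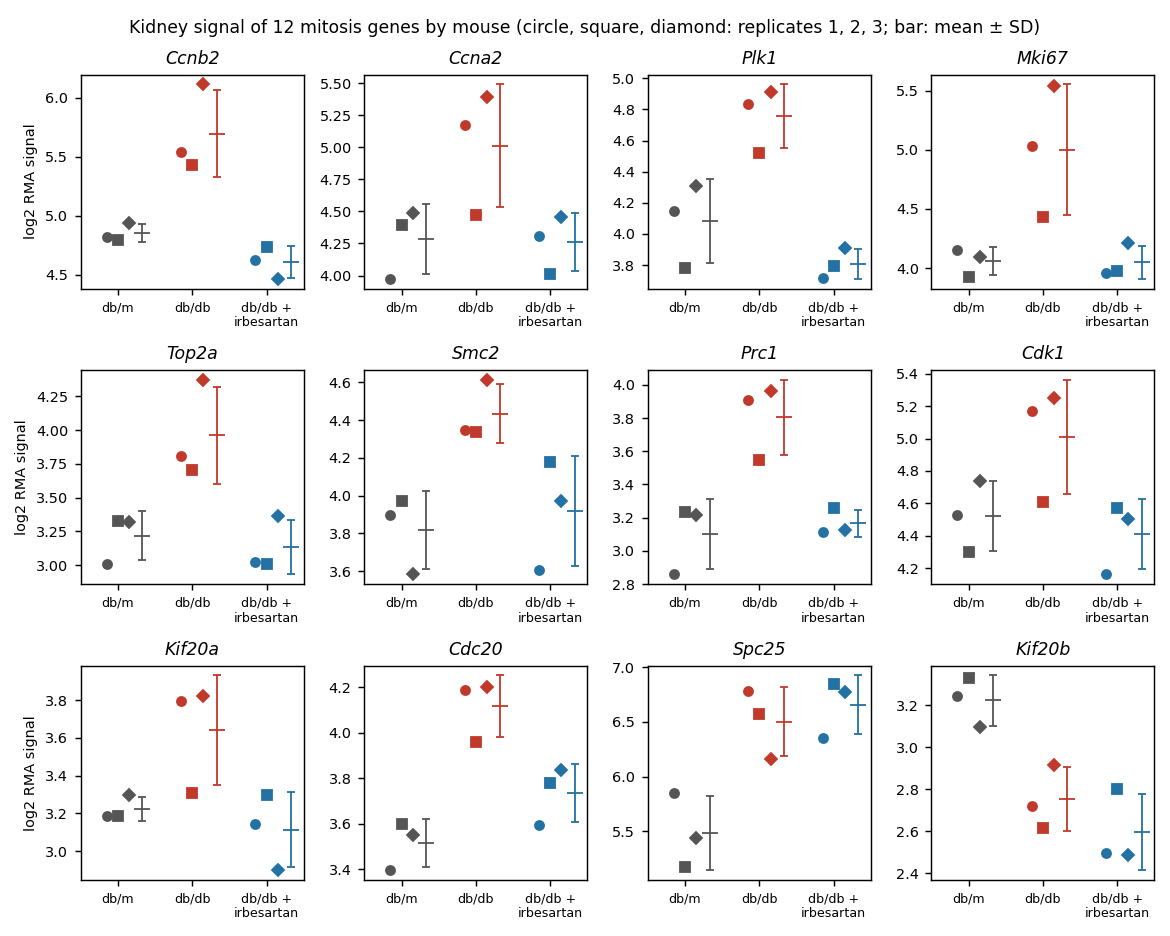
Log2 RMA signal (y axis) of 12 mitosis genes in each of the 9 mice, by group (x axis), with a circle, square and diamond for replicates 1, 2 and 3, the group mean ± SD beside them, and an own y range that does not start at 0 in each panel. In Ccnb2, Plk1, Mki67, Top2a, Prc1 and Smc2 the 3 untreated db/db mice lie above the other 6, while in Spc25 both db/db groups lie above db/m.

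Proteins of the chromosomes themselves gave 3 called genes of 6 in each comparison, and the same 3 (*Mki67*, *Top2a* and *Smc2*) in both. Over all genes, 0.428% were called lower with irbesartan and 1.31% higher in *db/db* mice. *Mki67*, the gene of the proliferation antigen Ki-67, which coats mitotic chromosomes, measured 4.16, 3.93 and 4.09 in *db/m*, 5.03, 4.43 and 5.54 in untreated *db/db*, and 3.96, 3.98 and 4.21 in treated mice. The untreated *db/db* mice overlapped with neither other group, but they spread widely among themselves, with replicate 3 at the top and replicate 2 not far above the others. The log2 fold change was -0.95 with irbesartan (SE 0.22, limma adjusted p = 0.164) and 0.94 for *db/db* against *db/m* (SE 0.22, limma adjusted p = 0.076). Without *db/db* replicate 3 these were -0.68 and 0.67, both still called. The first call was lost without *db/db* replicate 1 or any 1 of the treated arrays, its values running from -1.24 to -0.68 over all 9 such fits.

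*Top2a*, topoisomerase II alpha, untangles sister DNA molecules before they part. It measured 3.01, 3.33 and 3.32 in *db/m*, 3.81, 3.70 and 4.37 in untreated *db/db*, and 3.02, 3.01 and 3.37 in treated mice, again without overlap and with replicate 3 highest. It was 1.78-fold lower with irbesartan (-0.83, SE 0.17, limma adjusted p = 0.147) and 1.67-fold higher with the *db/db* genotype (0.74, SE 0.17, limma adjusted p = 0.0815). Its fall was not called without *db/db* replicate 2 or any 1 of the treated arrays (values from -0.96 to -0.62), and its rise was called in all 9 such fits.

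*Smc2*, a core subunit of condensin, the ring that compacts chromosomes, measured 3.90, 3.97 and 3.58 in *db/m*, 4.35, 4.34 and 4.61 in untreated *db/db*, and 3.61, 4.18 and 3.97 in treated mice. Its fall of 0.51 (SE 0.16, limma adjusted p = 0.249) stood at the edge of both limits and was lost in 8 of the 9 fits without 1 array (all but *db/m* replicate 3), where it ran from -0.64 to -0.36. Its rise of 0.62 in *db/db* mice (SE 0.16, limma adjusted p = 0.105) was lost without *db/db* replicate 3 or *db/m* replicate 3. The other condensin subunits measured in this role, *Smc4*, *Ncapd2* and *Ncaph*, were not called, and *Ncapg* was not measured. *Ncapg2*, a condensin II subunit from the further list below, was called lower with irbesartan (-0.55, limma adjusted p = 0.243). *Smc4*, the partner of *Smc2*, averaged 6.34, 6.54 and 6.44 in *db/m*, untreated and treated *db/db* mice, and *Ncapd2* averaged 4.85, 4.97 and 4.84.

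Genes of cytokinesis, the parting of the daughter cells, gave 3 of 4 called higher in *db/db* mice and 1 of 4 called lower with irbesartan. Over all genes these shares were 1.31% and 0.428%. *Prc1* encodes a protein that bundles the microtubules of the central spindle. It measured 2.86, 3.23 and 3.21 in *db/m*, 3.91, 3.55 and 3.96 in untreated *db/db*, and 3.11, 3.26 and 3.12 in treated mice, with every untreated *db/db* array above all others. It rose in *db/db* against *db/m* mice by 0.70 (SE 0.14, limma adjusted p = 0.0397), in every fit without 1 array, and fell by 0.64 with irbesartan (SE 0.14, limma adjusted p = 0.149). The fall was not called without *db/db* replicate 1 or without treated replicate 1 or 3, its values running from -0.77 to -0.56.

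*Racgap1*, a subunit of the centralspindlin complex that calls the contractile ring to the cell's equator, measured 3.79, 3.64 and 3.70 in *db/m*, 4.26, 4.11 and 4.26 in untreated *db/db*, and 3.88, 3.92 and 3.74 in treated mice. Its rise of 0.50 (SE 0.09, limma adjusted p = 0.0355) only just passed the limit on fold, and the call was lost without *db/db* replicate 1 or 3 or *db/m* replicate 2 or 3, where the values over all 9 fits ran from 0.47 to 0.55. With irbesartan its log2 fold change was -0.37 (limma adjusted p = 0.194), short of the limit on fold, although all 3 treated arrays lay below all 3 untreated *db/db* arrays. *Anln*, anillin, a scaffold of the contractile ring, rose in *db/db* mice by 0.76 (SE 0.18, limma adjusted p = 0.0841). Its log2 fold change with irbesartan was -0.50 and was not called (limma adjusted p = 0.32). *Ect2*, the exchange factor that switches on RhoA at the ring, had a log2 fold change of -0.61 with irbesartan but did not pass on adjusted p (limma, 0.317).

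**Figure D5:**
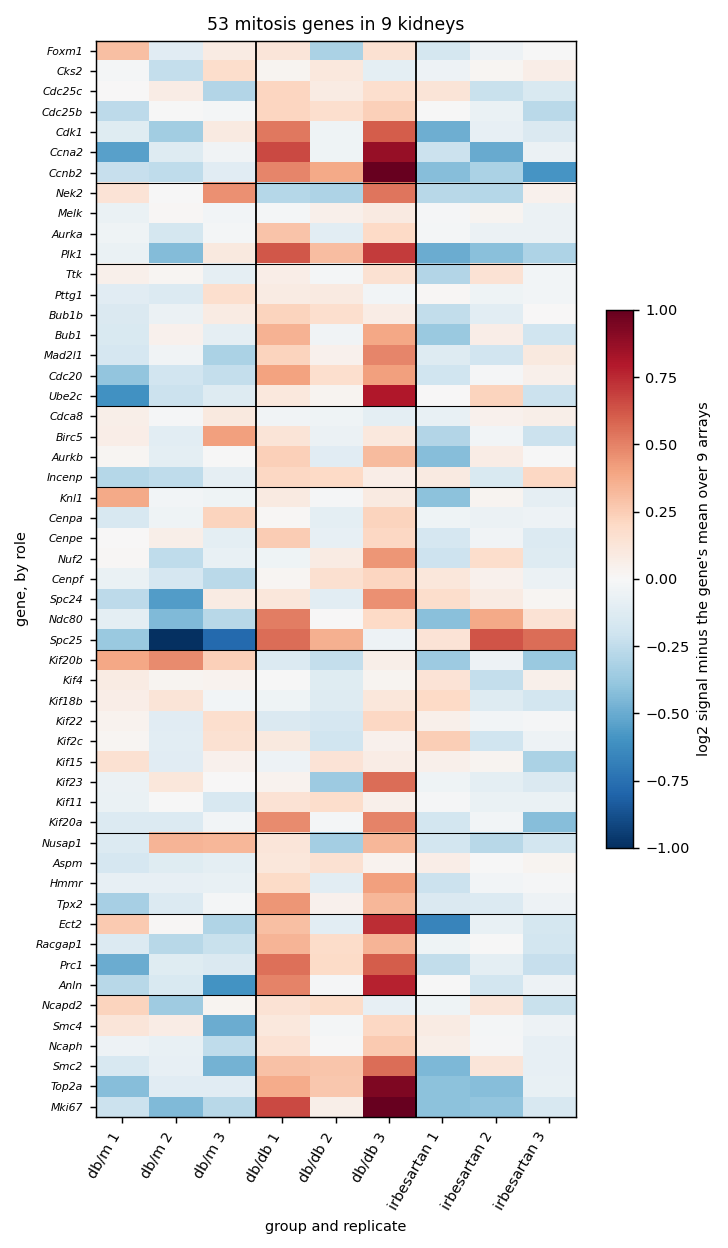
Log2 RMA signal of the 53 mitosis genes (rows, grouped by role) in the 9 mice (columns), with each gene centred on its mean over the 9 arrays and the colour scale in log2 units, where values beyond 1 in size take the end colours. The untreated db/db columns hold most of the high values, db/db replicate 3 has the highest signal of the 9 arrays in 28 genes, and db/db replicate 2 is the lowest of its group in 40.

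In the spindle checkpoint and the anaphase-promoting complex that it restrains, 2 of 7 genes were called higher in *db/db* mice, against 1.31% of all genes. With irbesartan 0 were called in any direction, near the shares of all genes for so short a list (0.428% lower, 0.577% higher). All 7 had a negative log2 fold change there, with a median of -0.31. *Cdc20*, the activator of that complex, measured 3.40, 3.60 and 3.55 in *db/m*, 4.19, 3.96 and 4.20 in untreated *db/db*, and 3.59, 3.78 and 3.84 in treated mice. It rose in *db/db* mice by 0.60 (SE 0.11, limma adjusted p = 0.0287), the lowest adjusted p of the 53 genes in that comparison, in every fit without 1 array. The treated mice lay between the other 2 groups in the mean, and their log2 fold change of -0.38 against untreated *db/db* (limma adjusted p = 0.227) missed the limit on fold. *Ube2c*, the ubiquitin-conjugating enzyme of the same complex, rose in *db/db* mice by 0.63 (SE 0.20, limma adjusted p = 0.205). That call was lost without *db/db* replicate 1 or 3, *db/m* replicate 1 or treated replicate 1, with a value of 0.38 without *db/db* replicate 3. *Mad2l1* and *Bub1b*, which make up part of the checkpoint's inhibitor of *Cdc20*, were not called in either comparison. *Mad2l1* had a log2 fold change of 0.43 for *db/db* against *db/m* (limma adjusted p = 0.186) without overlap, below the limit on fold.

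At the kinetochore, 0 of 8 genes were called with irbesartan. For so short a list this is near the shares of all genes (0.428% called lower, 0.577% higher). The log2 fold change was negative in 7 of the 8 and positive in 1, with a median of -0.15. In *db/db* against *db/m* mice 1 was called higher, against 1.31% of all genes. That gene was *Spc25*, a subunit of the NDC80 complex, which grips the ends of spindle microtubules. Its signal was 5.85, 5.18 and 5.44 in *db/m*, 6.78, 6.57 and 6.16 in untreated *db/db*, and 6.35, 6.85 and 6.77 in treated mice. Both *db/db* groups lay above every *db/m* mouse and overlapped each other, and unlike in *Ccnb2* or *Mki67*, *db/db* replicate 3 was the lowest of its group. The log2 fold change was 1.02 for untreated *db/db* against *db/m* (SE 0.20, limma adjusted p = 0.0417) and 1.17 for treated *db/db* against *db/m* (SE 0.20, limma adjusted p = 0.0127), and each call stayed in all 9 fits without 1 array. The mean of the treated mice, 6.66 ± 0.27, was no lower than that of the untreated *db/db* mice, 6.50 ± 0.31 (SD, n = 3 each). The other subunits of the complex were not called. *Ndc80* had a log2 fold change of 0.51 for *db/db* against *db/m* (limma adjusted p = 0.288), *Spc24* 0.40 (limma adjusted p = 0.347), and *Nuf2* averaged 2.40, 2.67 and 2.46 in the 3 groups. *Cenpa*, the histone that marks the centromere, averaged 4.62, 4.66 and 4.56.

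Of 9 mitotic kinesins, motor proteins that move along or take apart microtubules, 1 was called lower with irbesartan, against 0.428% of all genes. In *db/db* against *db/m* mice 0 were called, near the shares of all genes for so short a list (1.31% higher, 0.987% lower). *Kif20a*, a kinesin of the central spindle, measured 3.19, 3.19 and 3.30 in *db/m*, 3.80, 3.31 and 3.82 in untreated *db/db*, and 3.14, 3.30 and 2.90 in treated mice. *db/db* replicate 2, at 3.31, was close to the highest values of the other groups. The fall of 0.53 (SE 0.15, limma adjusted p = 0.22) was lost without *db/db* replicate 1 or 3, *db/m* replicate 2 or any 1 of the treated arrays, and the log2 fold change of 0.42 for *db/db* against *db/m* did not pass (limma adjusted p = 0.251). *Kif20b*, a related motor of the central spindle, went the other way. It measured 3.24, 3.33 and 3.10 in *db/m*, 2.72, 2.62 and 2.92 in untreated *db/db*, and 2.49, 2.80 and 2.49 in treated mice, so that both *db/db* groups lay below every *db/m* mouse. Its log2 fold change was -0.47 for untreated *db/db* against *db/m* (limma adjusted p = 0.108), short of the limit on fold, and -0.55 without *db/db* replicate 3, where it was called (limma adjusted p = 0.116). It fell by 0.63 in treated *db/db* against *db/m* mice (SE 0.12, limma adjusted p = 0.0204). The log2 fold changes of the other kinesins with irbesartan lay between -0.17 and 0.04. *Kif4*, the chromosome-bound kinesin, averaged 2.44, 2.36 and 2.37 in *db/m*, untreated and treated *db/db* mice.

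No gene of the chromosomal passenger complex, which corrects faulty attachments, was called in either comparison, although all 4 were measured. For 4 genes this is near the shares of all genes called (0.428% to 1.31% in each direction). Its scaffold *Incenp* had a log2 fold change of 0.37 for *db/db* against *db/m* (limma adjusted p = 0.176) without overlap, and its kinase *Aurkb* averaged 4.14, 4.32 and 4.05 in *db/m*, untreated and treated *db/db* mice. *Cdca8*, the subunit borealin, was lower in all 3 untreated *db/db* arrays than in any *db/m* array, with means of 2.60 and 2.71. No gene of the 4 that organise the spindle was called either, which is again near those shares. *Tpx2*, which activates the Aurora A kinase on spindle microtubules, had log2 fold changes of 0.43 for *db/db* against *db/m* (limma adjusted p = 0.145) and -0.38 with irbesartan (limma adjusted p = 0.268), and untreated *db/db* mice overlapped with neither other group. *Hmmr*, a spindle protein that also binds hyaluronan, had the dimmest probe set of the 53 genes, with group means of 1.80, 2.04 and 1.79, where little change can be seen.

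In treated *db/db* against *db/m* mice, *Spc25* was called higher and *Kif20b* lower, 2 of the 53 genes, which is about the share of all genes called in either direction (3.89%). The groups did not overlap in 6 of the 53 genes, 3 in each direction, against 23.5% of all genes. The median log2 fold change over the 53 was -0.02, with 22 positive and 31 negative. *Nusap1*, a microtubule-bundling protein of the spindle, had a log2 fold change of -0.40 (limma adjusted p = 0.273), *Birc5*, survivin of the passenger complex, -0.30 (limma adjusted p = 0.283), and *Incenp* 0.26 (limma adjusted p = 0.267), and none of these was called. For the 7 genes called in both of the other comparisons, the log2 fold change of treated *db/db* against *db/m* mice lay between -0.27 and 0.10 and none was called. With 3 mice a group this does not show that the levels were equal. By group means, untreated *db/db* mice were highest in 41 of the 53 genes, and the lowest group was the treated mice in 27 and the *db/m* mice in 22.

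A list of 80 further mitosis genes was read in the same way. Of 74 measured, 4 (5.41%) were called higher in *db/db* against *db/m* mice and 0 lower, against 1.31% and 0.987% of all genes. They were *Spag5* (0.81, limma adjusted p = 0.127), which helps attach microtubules, *Cenpn* (0.63), a reader of the centromere histone, *Cdkn3* (0.60, limma adjusted p = 0.0616), a phosphatase that acts on cyclin-dependent kinases, and *Pbk* (0.59, limma adjusted p = 0.143), a mitotic kinase. With irbesartan 2 (2.7%) were called lower and 0 higher, against 0.428% and 0.577% of all genes. The 2 were *Depdc1b* (-0.58, limma adjusted p = 0.143), a gene of G2 and M phase, and *Ncapg2* (-0.55, limma adjusted p = 0.243), a subunit of condensin II. *Depdc1b* averaged 5.77, 5.53 and 4.94 in *db/m*, untreated and treated *db/db* mice, so it was not higher in untreated *db/db* mice. The medians over the 74 were 0.11, with 57 positive and 17 negative, for *db/db* against *db/m* and -0.15, with 15 positive and 59 negative, with irbesartan. The difference between this list and the 53 genes was not tested. In treated *db/db* against *db/m* mice, *Depdc1b* and *Cit* (2.7%) were called lower and 0 higher, against 1.96% and 1.93% of all genes.

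Subunits of cohesin, the ring that holds sister chromatids together, and of the core of the anaphase-promoting complex are made throughout the cell cycle and also in resting cells. Of 23 such genes, 0 were called in any of the 3 comparisons in limma, which for so short a list is near the shares of all genes called (0.428% to 1.31% in each direction of the first 2 comparisons). The treated arrays all lay below the untreated *db/db* arrays in 11 of the 23, against 13.1% of all genes, and the median log2 fold changes were 0.08 for *db/db* against *db/m* and -0.15 for irbesartan against untreated *db/db*. *Anapc5*, a scaffold subunit, had the lowest p of these in the second comparison (-0.31, limma adjusted p = 0.214).

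Among 22 genes of the MuvB, DREAM and E2F factors that act on these promoters, 0 were called with irbesartan. For so short a list this is near the shares of all genes (0.428% called lower, 0.577% higher). The sign was negative for 16 of the 22 and positive for 6, with a median of -0.15. The treated arrays all lay below the untreated *db/db* arrays in 8 (36.4%), against 13.1% of all genes. In *db/db* against *db/m* mice 1 (4.55%) was called higher, against 1.31% of all genes. That gene was *Lin9*, a MuvB subunit (0.66, limma adjusted p = 0.028), which was also called higher in treated *db/db* against *db/m* mice (0.51, limma adjusted p = 0.042). Of 9 measured genes that brake the step into mitosis, *Wee1*, the kinase that puts the inhibitory phosphate on CDK1, was called higher in *db/db* against *db/m* mice (0.82, limma adjusted p = 0.0145), and 0 were called lower. That is 11.1% of the list called higher, against 1.31% of all genes. In treated *db/db* against *db/m* mice *Wee1* (1.06, limma adjusted p = 0.00243) and *Btg2* (0.52, limma adjusted p = 0.0598) were called higher. *Cdkn1a*, the inhibitor p21, passed at the very edge (0.93, SE 0.38, limma adjusted p = 0.248), with 6.93 to 8.18 in *db/m* and 8.18 to 8.77 in treated mice, ranges that overlap narrowly, and 0 of the 9 were called with irbesartan against untreated *db/db*. With *Cdkn1a*, 3 of the 9 (33.3%) were called higher in treated *db/db* against *db/m* mice, against 1.93% of all genes.

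The calls with irbesartan were lost more often than those with genotype when 1 array was left out. Over the 9 fits that each left out 1 array, 2 of the 9 genes called lower with irbesartan (*Ccnb2* and *Plk1*) were called every time, and the count was 3 and 5 without *db/db* replicates 1 and 3, 5 without *db/m* replicate 2, and 2, 3 and 2 without treated replicates 1, 2 and 3. Without *db/m* replicate 2, an array outside that comparison, all 9 still passed the limit on fold, as they did without treated replicate 2. The losses in those fits were on adjusted p. In *db/db* against *db/m* mice, 8 of the 12 (*Spc25*, *Mki67*, *Ccnb2*, *Anln*, *Top2a*, *Prc1*, *Plk1* and *Cdc20*) were called in all 9 fits, and the count lay between 9 and 16. The median over the 53 genes stayed between -0.29 and -0.15 with irbesartan and between 0.20 and 0.30 for genotype.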

How the data were processed

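Total RNA of 9 mouse kidneys (3 *db/m*, 3 untreated *db/db*, 3 irbesartan-treated *db/db*) was hybridised to Affymetrix arrays, 1 per mouse. The labels name the MoGene-2_0-st array, whereas the study's methods name another mouse array. The log2 values were deposited by the authors as RMA-normalised gene signals from Affymetrix Expression Console, so no background or intensity step could be repeated. Of 41345 probe sets, 23521 were annotated to a single symbol, 1820 to several and 16004 to none in the table used here. Each of the 22180 genes was represented by its probe set with the largest mean signal. Group means were fitted over the 9 arrays in limma 3.58.1 (R 4.3.3) with 6 residual degrees of freedom, and 3 comparisons were read from the fit, each adjusted over all genes by the Benjamini-Hochberg method. The study's methods name a one-way analysis of variance, and an unmoderated test over the 3 groups was run as an alternative. The 3 arrays a group limit the precision. The fit was tested on simulated data whose planted changes were larger than most of those called here. That test does not bear on smaller changes. Promoter motifs were searched in RefSeq windows with Python 3.11.15. The mitosis genes and all lists were chosen with earlier results of these data known. Genes named with values were those called in any comparison, *Prc1*, *Ccna2*, *Ccnb2* and *Mki67*, the 5 with the lowest p per comparison, the 3 with the smallest change, the brightest and dimmest, and examples of each role. Alternatives covered thresholds, test, array weights, filters, probe set choice, scaling, a replicate block and leaving out each array.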

Additional observations from a re-analysis of the deposited data

How the results depend on the processing

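Of the 3 counts of called genes, that with irbesartan moved most. From 9 it went to 0 at adjusted p under 0.05, to 2 when every probe set was tested and the p-values were adjusted over more features, to 2 under the ordinary test over 3 groups, and to 2 to 9 over the fits that left out 1 array. The count for *db/db* against *db/m*, 12, went to 5 at adjusted p under 0.05, to 6 under the ordinary test over 3 groups, and to 9 to 16 without 1 array. That for treated *db/db* against *db/m*, 2, went to 1 when genes at or below the median of the probe set means were left out, where 28 of the 53 genes remained, and to 2 to 3 without 1 array. Where no reason is given, the cause was not tested. Array weights, an intensity trend, the mean of a gene's probe sets, only the 6 arrays compared, median centring, a second quantile normalization and no limit on fold kept each count within 1.5 times. The replicate numbers did not pair the mice, since deviations of same-numbered arrays correlated between -0.08 and 0.04 over genes. With the replicate number as a block, 5 genes were called with irbesartan in place of 9, and the counts for the other 2 comparisons stayed at 12 and 2.

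No called gene changed sign. Of the genes with the smallest changes, *Kif18b* with irbesartan went to 0.0034 with array weights and ranged from -0.14 to 0.056 without 1 array, *Kif4* from -0.062 to 0.12 and *Cks2* from -0.058 to 0.043. For *db/db* against *db/m*, *Cenpa* ranged from -0.053 to 0.14, *Cks2* from -0.064 to 0.14 and *Kif15* from -0.043 to 0.089. The median over the 53 genes for treated *db/db* against *db/m* ranged from -0.042 to 0.0034.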

Other observations

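Other kidney cell types were read through short marker lists in the same fits. Of all genes, 1.31% were called higher and 0.987% lower in untreated *db/db* against *db/m* mice. With irbesartan 0.577% were called higher and 0.428% lower. Of 12 markers of the loop of Henle and distal nephron, 11 had a higher mean in untreated *db/db* than in lean kidneys, and 1, the calcium-binding protein gene *Calb1*, was called (0.68, limma adjusted p = 0.076). With irbesartan against untreated *db/db*, 1 of these 12 markers was called higher (0.55). All 6 measured podocyte markers had a higher mean in untreated *db/db* kidneys and 0 were called. Of 10 markers of fibroblasts and pericytes, 7 had a higher and 3 a lower mean in untreated *db/db* kidneys, from -0.50 to 0.64, and 1, the pericyte gene *Rgs5*, was called (0.64, limma adjusted p = 0.024). Of 11 genes of tubule injury, *Krt19* was called higher in *db/db* against *db/m* kidneys (0.51, limma adjusted p = 0.057) and *Krt8*, also a keratin, was called lower with irbesartan (-0.57, limma adjusted p = 0.147). Of 12 macrophage markers, 11 had a lower mean in *db/db* against *db/m* kidneys, and 0 were called in that comparison or with irbesartan. Treated replicate 2 stood apart in the summed signal of these markers, at 863 against 525 and 431 in treated replicates 1 and 3, and in that of the fibroblast and pericyte markers, at 2314 against 1870 and 1657.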
